A study of Mus musculus with 23 samples.

Results

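The genes described are 53 genes of mitosis and of the mitotic spindle, measured in mouse embryonic fibroblasts that carry an oncogenic Ras and differ in their p53 allele. They were taken by gene symbol from the probe sets of the Affymetrix arrays, 1 probe set per gene with the highest mean over all arrays, and all 53 were found among 18193 genes and stayed among the 15266 genes that were tested. Each array gave RNA of a bulk culture, 23 arrays in all. The members were sorted by role into 13 kinetochore genes, 5 spindle checkpoint genes, 4 chromosomal passenger genes, 8 spindle motors, 5 genes of spindle assembly, 7 genes of condensin and topoisomerase, 5 cytokinesis genes, 5 genes of anaphase control and Depdc1a.

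All cultures were infected with retroviral H-Ras V12, a mutant that drives wild-type fibroblasts into premature senescence but not fibroblasts without p53, as the series' design text states. The 5 groups differed in p53, and the 3 mutant groups were LSL knock-in cultures given Adeno-Cre. The 25,26 group (5 arrays) carried L25Q and W26S, which disrupt the first transactivation domain of p53. The 53,54 group (3 arrays, replicates 2 to 4) carried W53Q and F54S in the second transactivation domain, and the QM group (3 arrays) carried all of L25Q, W26S, W53Q and F54S. The WT group (6 arrays) joined 3 LSL-WT cultures given Adeno-Cre (replicates 1 to 3) and 3 WT cultures given Adeno-Cre (replicates 4 to 6). The Null group (6 arrays) joined 3 LSL-WT cultures given Adeno-Empty (replicates 1 to 3) and 3 Null cultures given Adeno-Cre (replicates 4 to 6). An LSL allele holds a stop element between lox sites and stays silent until Cre removes it. Strain background was 129 or mixed, in 4 and 1 arrays of 25,26, 1 and 2 of 53,54, 2 and 1 of QM, 3 and 3 of WT and 4 and 2 of Null. For WT replicate 6 the genotype label reads LSL-WT while the title reads WT, and the label of Null replicate 6 adds the word knock-in; both were kept with their titles. The design text calls the samples biological, but neither it nor the labels say whether replicates were separate embryos or the stage of the embryos, so p-values measure only the spread between these samples. In the 7 sets of arrays that share a title, the array numbered 2 had the lowest mean over the members in 6, and results are given with and without these arrays where it matters.

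In mitosis the condensins and topoisomerase II compact the chromosomes, kinetochores built on centromeric chromatin bind spindle microtubules, and kinesin motors shape the spindle. The spindle checkpoint delays anaphase until kinetochores are attached, then the anaphase-promoting complex releases separase to cut cohesin, and the central spindle and the contractile ring divide the cell. Most of these genes are transcribed late in the cell cycle, through promoters that often hold a cell cycle homology region (CHR, TTTGAA) and CCAAT boxes. Active p53 is known to repress many of them through its target Cdkn1a and the DREAM complex, in which MuvB proteins, the retinoblastoma-like proteins Rbl1 and Rbl2 and E2f4 hold such promoters silent.

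Markers of the labelled cells were read first. All 8 fibroblast markers were above the filter on low values, with summed intensities of 88790 to 137100 per array. Summed markers of macrophages (271.4 to 637.7), epithelium (323.4 to 715.4) and endothelium (187.1 to 346.3) were lower. By their mean over all arrays, 3 of 5 macrophage, 5 of 5 epithelial and 2 of 4 endothelial markers also lay above the filter level of log2 4.79. Of the markers that did not, Ptprc and Itgam of macrophages and Pecam1 of endothelium lay below it in every array. That does not show that such cells were absent. The p53 transcript itself was not analysed here. Of p53 targets, Cdkn1a, which inhibits cyclin-dependent kinases, was higher than Null by 2.53 ± 0.21 (log2, SE) in WT with an adjusted p of 1.98e-08, by 2.47 ± 0.26 in 53,54 (5.07e-07) and by 0.78 ± 0.22 in 25,26 (0.0471). Mdm2 and Ccng1 passed the same test in these 3 groups, and none of the 3 targets did in QM. No 2 arrays held identical values, and the highest correlation between arrays was 0.997.

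Mitosis genes were lower in WT than in Null almost without exception. In limma's test, with Benjamini-Hochberg adjustment over all 15266 genes and a threshold of 0.05, 51 of 53 members were called lower in WT and 0 higher, where 11.8% of all genes tested were called lower. The median member differed by -1.54 on the log2 scale against a median of 0.00 over all genes, and 50 members were at least 2-fold lower. In 50 members every WT array lay below every Null array, which held for 5.16% of all genes. The largest difference was that of Ncapg, a condensin I subunit, at -2.09 ± 0.30 (SE, adjusted p = 2.99e-05). Only Bub3 and Cit were not called. RNA of a whole culture cannot tell fewer cells in mitosis from less of each transcript per cell.

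Of the p53 mutants, 53,54 was low for these genes, QM was not called different from Null, and 25,26 had means between WT and Null in most members. In 53,54, 50 of 53 members were called lower than Null and 0 higher, where 10.3% of all genes were called lower, with a median difference of -1.79 against -0.02 over all genes. The 53,54 and Null arrays did not overlap in 49 members, against 10.4% of all genes. In 25,26 the median member differed from Null by -0.45, against 0.01 over all genes, and 1 member was called lower, Fbxo5, where 1.28% of all genes were. That count rests on the fit without a block: with the title number as a block, 26 members were called lower in 25,26, where 6.57% of all genes were. In QM 0 members were called in either direction, where 0.0131% of all genes were, and the median difference was -0.02. By limma 0 members and 377 of all 15266 genes had an unadjusted p under 0.05 in that comparison. These 4 comparisons share the 6 Null arrays.

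**Figure D1:**
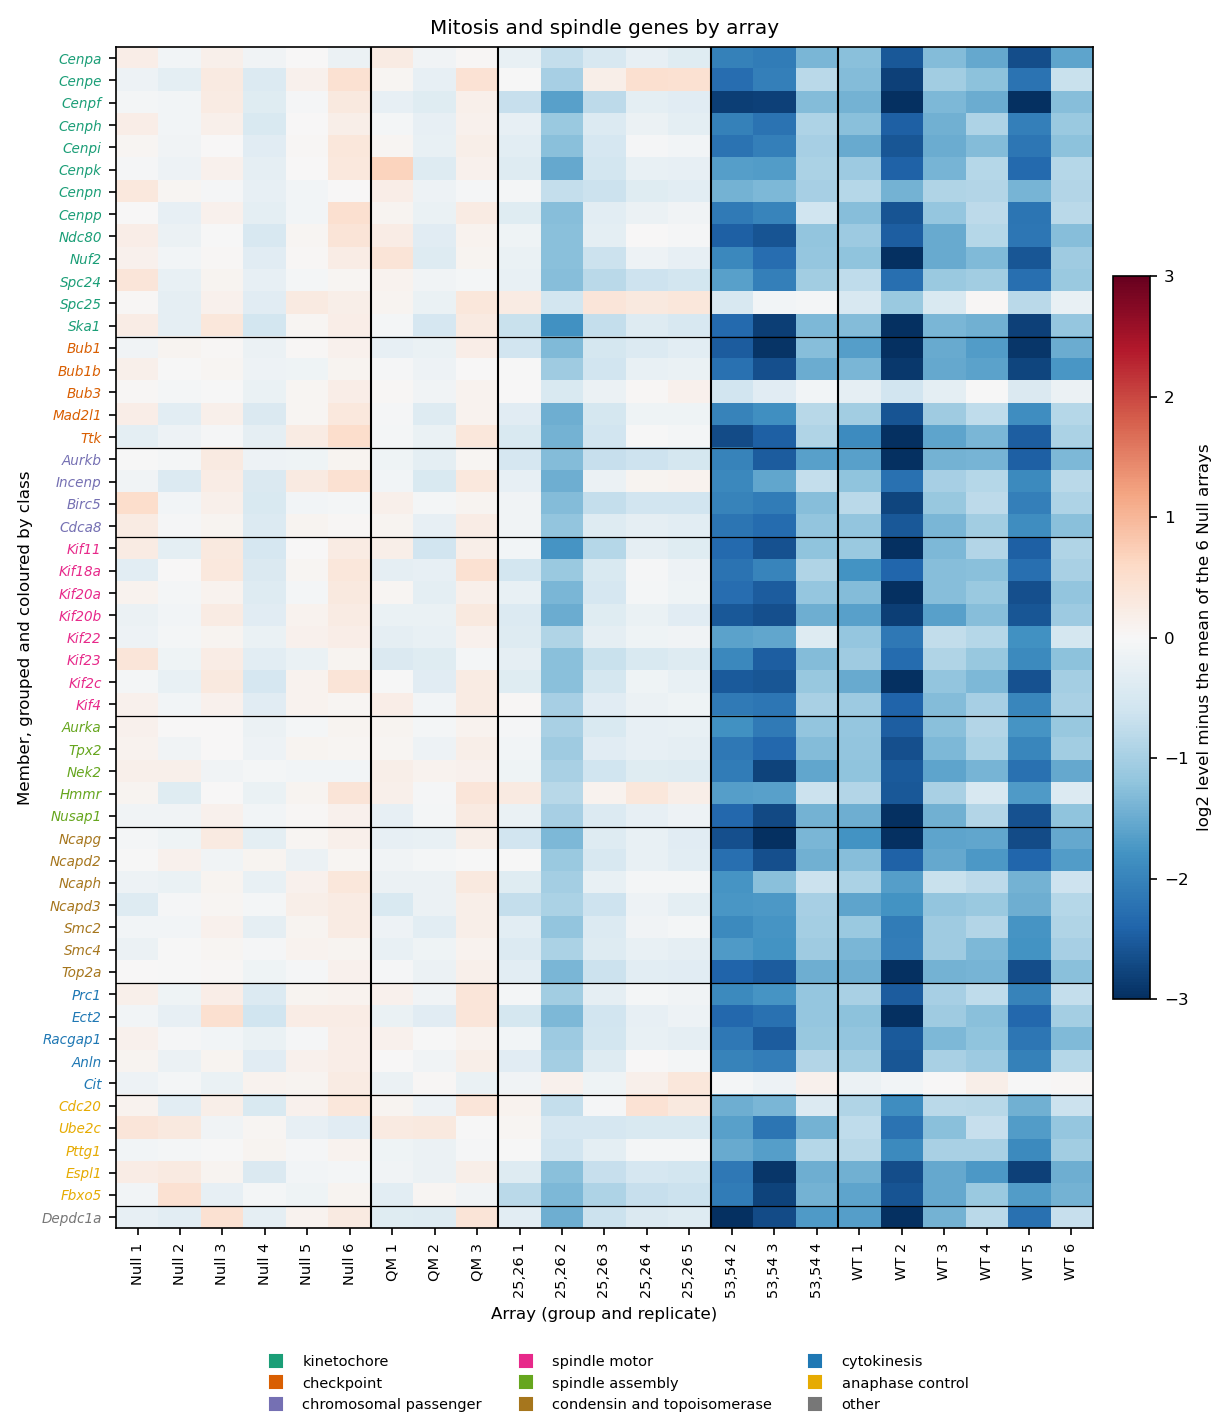
Log2 level of each of the 53 members (rows, grouped and coloured by class) in each of the 23 arrays (columns), minus that gene's mean over the 6 Null arrays; blue is lower and red higher than Null. WT and 53,54 columns are blue for nearly all rows, with Spc25, Bub3 and Cit the palest, QM columns are near white, and 25,26 replicate 2 stands out from the other 25,26 arrays.

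Promoter letters show what the members share that the choice of genes did not use. RefSeq windows (GRCm38.p6), from 250 bases before to 50 after a transcription start, were found for 46 members, with 52 windows in all because 5 members have several. Spc24, Ska1, Aurkb, Incenp, Kif20a, Tpx2 and Smc4 were not matched. Read on both strands, the CHR TTTGAA stood in 34 of 52 member windows (65.4%) against 17.9% of the 32851 windows in the table, and CCAAT in 71.2% against 37.4%. A variant of the CHR, TTCGAA, stood in 5.77% against 1.56%, and 2 forms of the E2F site, TTCCCGC and TTGGCGC, in 7.69% against 4.6% and in 11.5% against 2.45%. With only the bases before the start counted, the CHR stood in 34.6% of member windows against 16%, and CCAAT in 67.3% against 33.8%. The CHR variant then stood in 3.85% against 1.34%. Of the E2F forms, TTCCCGC fell below the share of all windows, at 1.92% against 3.82%, and TTGGCGC stood in 7.69% against 1.97%. In the whole window these E2F forms rest on 4 and 6 member windows. Matches of different motifs were counted separately, also where they overlap, and a match is a run of letters, not a measured site. The 120 bases before the start are printed for 4 members that were lower in WT and for both members that were not called, picked after their matches were known. Capitals mark the CHR and CCAAT on either strand, so that TTCAAA and ATTGG are the same motifs read from the other strand.
Cdc20 (chr4:118437344-118437463, minus strand): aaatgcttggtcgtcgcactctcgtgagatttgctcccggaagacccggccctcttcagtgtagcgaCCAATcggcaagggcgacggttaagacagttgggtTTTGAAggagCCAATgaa
Ube2c (chr2:164769809-164769928, plus strand): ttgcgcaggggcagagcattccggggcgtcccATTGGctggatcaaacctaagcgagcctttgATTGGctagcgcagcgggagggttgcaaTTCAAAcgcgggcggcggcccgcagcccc
Espl1 (chr15:102296173-102296292, plus strand): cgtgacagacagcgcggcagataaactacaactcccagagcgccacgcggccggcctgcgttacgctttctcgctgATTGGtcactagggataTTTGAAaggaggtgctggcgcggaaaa
Ncapg (chr5:45669805-45669924, plus strand): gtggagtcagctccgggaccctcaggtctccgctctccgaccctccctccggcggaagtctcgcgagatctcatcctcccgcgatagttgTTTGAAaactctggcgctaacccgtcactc
Bub3 (chr7:131560250-131560369, plus strand): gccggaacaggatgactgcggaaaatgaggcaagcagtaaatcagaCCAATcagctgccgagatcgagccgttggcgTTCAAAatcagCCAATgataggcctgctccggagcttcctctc
Cit (chr5:115845536-115845655, plus strand): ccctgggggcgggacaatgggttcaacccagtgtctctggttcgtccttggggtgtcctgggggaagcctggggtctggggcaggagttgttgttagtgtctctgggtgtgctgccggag
Cdc20, Ube2c and Espl1 each hold a CHR with a CCAAT box upstream of it in this stretch, and Ncapg holds a CHR there while its CCAAT lies further upstream. Bub3, which was not called in WT, also holds both motifs in its first window. Cit holds neither, and though it was not called in its brightest probe set, its other 3 were lower in WT. Over the members with a window, the median difference of WT from Null was -1.57 in the 31 with a CHR and -1.54 in the 15 without, given as a description. With only the bases before the start the order turned, to -1.49 in the 16 with a CHR and -1.54 in the 30 without. For CCAAT in the whole window the medians were -1.585 in the 32 with it and -1.45 in the 14 without.

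For each member below, levels are log2 intensities; the 6 Null and the 6 WT arrays are given by their lowest, median and highest value and the other groups array by array in replicate order. Differences are log2, with the SE from limma and the p adjusted over all 15266 genes. Levels of different genes come from different probe sets and are not compared with each other.

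Kinetochore genes were called lower in WT in 13 of 13 members (median difference -1.55) and in 53,54 in 12 of 13 (-1.72). In 25,26 the median was -0.45 and 0 were called, or 8 of 13 with the title number as a block. Cenpa, the histone H3 variant that marks centromeres, read 11.21, 11.33 and 11.57 in Null and 8.72, 9.81 and 10.12 in WT. Its levels were 11.15, 10.67, 10.89, 11.13 and 11.0004 in 25,26, 9.34, 9.27 and 9.99 in 53,54 and 11.63, 11.26 and 11.41 in QM. All WT and 53,54 arrays lay below all arrays of the other groups, and the 25,26 arrays lay between WT and Null without overlap on either side. The differences of Cenpa from Null were -1.81 ± 0.21 in WT (adjusted p = 1.65e-06), -1.84 ± 0.25 in 53,54 (1.65e-05) and -0.41 ± 0.22 in 25,26 (0.373). Cenpn, which reads the Cenpa nucleosome, stood at 9.87, 10.10 and 10.43 in Null and at 8.70, 9.23 and 9.26 in WT. The 25,26 arrays gave 10.05, 9.40, 9.47, 9.75 and 9.803, the 53,54 arrays 8.70, 8.78 and 9.12 and the QM arrays 10.32, 9.95 and 10.08. Cenpn was lower by a smaller but even step, -1.05 ± 0.13 in WT (adjusted p = 4.77e-06) and -1.25 ± 0.16 in 53,54 (7.56e-06); 25,26 differed by -0.42 ± 0.14 (0.0961; with the block -0.50, adjusted p = 0.00149). Spc25, a subunit of the NDC80 complex that grips microtubules, was the kinetochore gene that differed least. It read 10.24, 10.65 and 10.85 in Null, 9.46, 10.10 and 10.60 in WT, 10.81, 10.02, 10.94, 10.86 and 10.92 in 25,26, 10.09, 10.50 and 10.52 in 53,54 and 10.66, 10.38 and 10.91 in QM. These groups overlapped, and the difference of WT was -0.51 ± 0.18 (adjusted p = 0.0475), a call that was lost when any of WT replicates 1, 2, 3 or 5 or Null replicates 1, 3, 5 or 6 was left out (without WT replicate 2, -0.39, adjusted p = 0.13). Its partners in the same complex, Ndc80, Nuf2 and Spc24, differed by -1.57, -1.79 and -1.43 in WT and were called. The members of the centromere network Cenph, Cenpi, Cenpk and Cenpp lay between -1.47 and -1.71, Cenpe and Cenpf at -1.55 and -1.99, and Ska1 of the microtubule-binding SKA complex at -1.87.

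Checkpoint genes had the lowest median of the 8 classes in both groups, -1.91 in WT and -2.02 in 53,54, with 4 of 5 called lower in each; in 25,26 the median was -0.50 with 0 called, or 1 of 5, Mad2l1, with the block. Bub1b, the BubR1 protein that holds back the anaphase-promoting complex, read 10.50, 10.67 and 10.80 in Null and 7.76, 8.98 and 9.29 in WT. Array by array it read 10.64, 9.59, 10.07, 10.43 and 10.44 in 25,26, 8.42, 8.02 and 9.17 in 53,54 and 10.62, 10.49 and 10.67 in QM. WT and 53,54 arrays lay below all 25,26 arrays. Bub1b differed from Null by -1.98 ± 0.24 in WT (adjusted p = 3.96e-06), -2.11 ± 0.30 in 53,54 (2.2e-05) and -0.42 ± 0.26 in 25,26 (0.456). Bub1, the kinase that recruits checkpoint proteins to kinetochores, gave 11.16, 11.36 and 11.44 in Null and 8.29, 9.67 and 9.84 in WT. In the mutants it gave 10.76, 10.004, 10.79, 10.91 and 11.01 (25,26), 8.82, 8.38 and 10.04 (53,54) and 11.07, 11.13 and 11.52 (QM). All 25,26 arrays of Bub1 were under all Null arrays, yet its difference of -0.63 ± 0.30 was not called (adjusted p = 0.286), while WT was lower, at -2.04 ± 0.28 (1.61e-05) and 53,54 by -2.24 ± 0.35 (5.59e-05). Bub3, the partner that both proteins bind, was not called in any group without the block. Its levels were 12.56, 12.76 and 12.94 in Null, 12.18, 12.48 and 12.73 in WT, 12.75, 12.28, 12.57, 12.78 and 12.89 in 25,26, 12.17, 12.41 and 12.68 in 53,54 and 12.79, 12.65 and 12.86 in QM, with overlap throughout. Its difference was -0.29 ± 0.11 in WT (adjusted p = 0.0614) and -0.33 ± 0.13 in 53,54 (0.0931). With the title number as a block Bub3 was called in both, at -0.27 (adjusted p = 0.00172) and -0.35 (0.000941). The checkpoint kinase Ttk and the anaphase inhibitor Mad2l1 were lower in WT, at -1.91 ± 0.34 (adjusted p = 0.000236) and -1.37 ± 0.29 (0.00126).

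Chromosomal passenger genes, whose complex corrects wrong attachments, were called lower in 4 of 4 members in WT (median -1.47) and in 53,54 (-1.84), and the 25,26 median was -0.56 with 0 called, or 4 of 4 with the block. Aurkb, the kinase of the complex, read 9.22, 9.34 and 9.65 in Null and 6.28, 7.85 and 8.03 in WT. Its other levels were 8.88, 8.08, 8.69, 8.77 and 8.84 in 25,26, 7.38, 6.88 and 7.74 in 53,54 and 9.24, 9.07 and 9.44 in QM. The 25,26 arrays formed a level of their own, below all Null and above all WT and 53,54 arrays. Aurkb differed by -1.89 ± 0.24 in WT (adjusted p = 6.22e-06), -2.05 ± 0.30 in 53,54 (2.77e-05) and -0.72 ± 0.25 in 25,26 (0.122; with the block -0.83, adjusted p = 0.0221). Cdca8 (borealin) stood at 10.65, 11.10 and 11.28 in Null and 8.50, 9.73 and 10.01 in WT, with 10.93, 9.86, 10.65, 10.78 and 10.73 in 25,26, 8.86, 8.73 and 9.87 in 53,54 and 11.14, 10.79 and 11.28 in QM. The 25,26 replicate 2 array of Cdca8 lay inside the WT range, and the differences were -1.54 ± 0.24 in WT (adjusted p = 5.65e-05), -1.89 ± 0.29 in 53,54 (5.45e-05) and -0.46 ± 0.25 in 25,26 (0.385; with the block -0.58, adjusted p = 0.0411). Incenp, the scaffold, gave 10.66, 11.16 and 11.56 in Null and 8.87, 10.002 and 10.30 in WT, then 10.84, 9.63, 10.92, 11.19 and 11.21 in 25,26, 9.16, 9.53 and 10.37 in 53,54 and 11.01, 10.64 and 11.41 in QM. The 25,26 arrays of Incenp were within the Null range except replicate 2, which was within the WT range. WT was lower, at -1.33 ± 0.29 (adjusted p = 0.00175) and 53,54 by -1.41 ± 0.36 (0.0065, and 0.0647 without 53,54 replicate 2), and 25,26 differed by -0.34 ± 0.31 (0.657; with the block -0.54, adjusted p = 0.0172). Birc5 (survivin) was lower in WT, at -1.41 ± 0.28 (adjusted p = 0.000801).

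Spindle motors were called lower in 8 of 8 members in WT (median -1.66) and in 8 of 8 in 53,54 (-1.94), and in 25,26 the median was -0.48 with 0 called, or 4 of 8 with the block. Kif20b, a kinesin-6 of cytokinesis, read 9.53, 9.90 and 10.14 in Null and 7.05, 8.25 and 8.80 in WT. It read 9.46, 8.40, 9.51, 9.67 and 9.54 in 25,26, 7.34, 7.24 and 8.42 in 53,54 and 9.69, 9.68 and 10.17 in QM. Of the 25,26 arrays of Kif20b only replicate 2 reached into the WT range; the differences from Null were -1.84 ± 0.28 in WT (adjusted p = 4.99e-05), -2.22 ± 0.34 in 53,54 (5.8e-05) and -0.56 ± 0.29 in 25,26 (0.353; with the block -0.70, adjusted p = 0.0451). Kif18a, a kinesin-8 that limits microtubule length, gave 8.27, 8.74 and 9.04 in Null and 6.33, 7.16 and 7.72 in WT. Its mutant arrays gave 8.16, 7.60, 8.25, 8.66 and 8.56 (25,26), 6.48, 6.71 and 7.79 (53,54) and 8.43, 8.46 and 9.16 (QM). Kif18a was lower, at -1.66 ± 0.26 in WT (adjusted p = 6.86e-05) and -1.71 ± 0.32 in 53,54 (0.000448), with -0.46 ± 0.27 in 25,26 (0.441; with the block -0.60, adjusted p = 0.0353). Kif11, the motor that pushes spindle poles apart, had the largest spread within sets of arrays of all members (SD 0.73). It ranged over 8.203, 8.84 and 8.999 in Null and 5.35, 7.49 and 7.83 in WT, with 8.64, 6.94, 7.85, 8.45 and 8.35 in 25,26, 6.38, 6.11 and 7.51 in 53,54 and 8.88, 8.14 and 8.90 in QM. WT differed by -1.67 ± 0.38 (adjusted p = 0.00231), 53,54 by -2.05 ± 0.46 (0.00271) and 25,26 by -0.67 ± 0.40 (0.442; with the block -0.88, adjusted p = 0.0384). Kif2c, which depolymerises microtubules, Kif20a and Kif23 of the central spindle and the chromokinesins Kif4 and Kif22 were lower in WT at between -1.81 (Kif2c) and -1.21 (Kif22).

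Spindle assembly genes were called lower in 5 of 5 members in WT (median -1.52) and in 53,54 (-1.93); the 25,26 median was -0.40 with 0 called, with or without the block. Nek2, a kinase that splits centrosomes, read 10.43, 10.47 and 10.70 in Null and 8.02, 8.98 and 9.32 in WT. Individual arrays read 10.40, 9.57, 9.94, 10.17 and 10.14 in 25,26, 8.43, 7.76 and 8.97 in 53,54 and 10.72, 10.65 and 10.66 in QM. As with Aurkb, the 25,26 arrays fell between the groups without touching either, and Nek2 differed from Null by -1.75 ± 0.20 in WT (adjusted p = 2.1e-06), -2.15 ± 0.25 in 53,54 (2.18e-06) and -0.49 ± 0.21 in 25,26 (0.242). Aurka, the kinase of centrosomes and spindle poles, stood at 10.94, 11.14 and 11.25 in Null and 8.65, 9.90 and 10.23 in WT, and at 11.08, 10.15, 10.66, 10.87 and 10.89 in 25,26, 9.31, 9.0002 and 9.92 in 53,54 and 11.21, 11.07 and 11.22 in QM. Aurka was lower, at -1.45 ± 0.21 in WT (adjusted p = 2.97e-05) and at -1.71 ± 0.26 in 53,54 (4.45e-05), with -0.39 ± 0.22 in 25,26 (0.41). Hmmr, which binds microtubules at spindle poles, gave 9.87, 10.27 and 10.61 in Null and 7.68, 9.31 and 9.83 in WT. Its levels of 10.50, 9.39, 10.34, 10.58 and 10.41 in 25,26 were at or above the Null median except for replicate 2, while 53,54 gave 8.57, 8.61 and 9.59 and QM 10.39, 10.19 and 10.60. The differences of Hmmr were -1.17 ± 0.29 in WT (adjusted p = 0.00567), -1.31 ± 0.36 in 53,54 (0.0122, and 0.0798 and 0.0837 without replicate 2 or 3) and 0.01 ± 0.31 in 25,26 (0.989). With LSL-WT with Empty virus alone as Null, the call of Hmmr in WT was lost (-1.08, adjusted p = 0.064). Tpx2, the activator of Aurka on the spindle, and Nusap1, a microtubule bundler, were lower in WT, at -1.52 ± 0.24 (adjusted p = 6.26e-05) and -1.79 ± 0.30 (0.000124).

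Condensin subunits and topoisomerase II alpha were called lower in 7 of 7 members in WT (median -1.44) and in 53,54 (-1.57), with a 25,26 median of -0.45 and 0 called, or 5 of 7 with the block. Ncapd2 of condensin I had the smallest adjusted p of all members in WT. It read 10.51, 10.72 and 10.82 in Null and 8.25, 8.99 and 9.42 in WT, 10.68, 9.58, 10.20, 10.46 and 10.37 in 25,26, 8.42, 8.06 and 9.25 in 53,54 and 10.58, 10.62 and 10.68 in QM. No WT or 53,54 array of Ncapd2 reached the lowest 25,26 array, and the differences from Null were -1.83 ± 0.21 in WT (adjusted p = 1.46e-06), -2.11 ± 0.25 in 53,54 (3.22e-06) and -0.43 ± 0.22 in 25,26 (0.328). Smc4, an ATPase of both condensins, stood at 11.68, 11.88 and 11.96 in Null and 9.79, 10.50 and 10.87 in WT. In 25,26 it stood at 11.44, 10.90, 11.48, 11.63 and 11.60, in 53,54 at 10.16, 10.06 and 10.80 and in QM at 11.63, 11.73 and 11.97. The 25,26 arrays of Smc4 were all below Null and all above WT and 53,54, with differences from Null of -1.44 ± 0.17 in WT (adjusted p = 1.94e-06), -1.52 ± 0.20 in 53,54 (1.28e-05) and -0.45 ± 0.18 in 25,26 (0.176; with the block -0.53, adjusted p = 0.0208). Ncaph, the kleisin of condensin I, gave 10.22, 10.42 and 10.80 in Null, 8.79, 9.59 and 9.82 in WT, 10.09, 9.44, 10.23, 10.39 and 10.40 in 25,26, 8.67, 9.19 and 9.81 in 53,54 and 10.27, 10.28 and 10.74 in QM. It had the smallest step of the class, -1.02 ± 0.21 in WT (adjusted p = 0.000876) and -1.22 ± 0.25 in 53,54 (0.00119), with -0.34 ± 0.22 in 25,26 (0.478; with the block -0.47, adjusted p = 0.0108). Ncapd3 of condensin II and Smc2, the other ATPase, differed in WT by -1.33 and -1.30, and Top2a, which untangles sister DNA, by -1.89 ± 0.28 (adjusted p = 3.74e-05).

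Cytokinesis genes were called lower in 4 of 5 members in WT (median -1.42) and in 53,54 (-1.65), and the 25,26 median was -0.36 with 0 called, or 2 of 5 with the block. Racgap1, the GTPase-activating subunit of centralspindlin, read 10.47, 10.65 and 10.88 in Null and 8.16, 9.34 and 9.496 in WT, then 10.59, 9.59, 10.12, 10.46 and 10.41 in 25,26, 8.53, 8.18 and 9.54 in 53,54 and 10.80, 10.66 and 10.77 in QM. Racgap1 differed from Null by -1.62 ± 0.23 in WT (adjusted p = 2.81e-05), -1.92 ± 0.29 in 53,54 (4.1e-05) and -0.44 ± 0.25 in 25,26 (0.397; with the block -0.58, adjusted p = 0.0495). Anln (anillin), the scaffold of the contractile ring, stood at 12.09, 12.51 and 12.62 in Null and 9.86, 11.36 and 11.56 in WT. The mutants gave 12.09, 11.41, 12.04, 12.44 and 12.36 (25,26), 10.41, 10.35 and 11.55 (53,54) and 12.43, 12.31 and 12.59 (QM). Anln was lower, at -1.42 ± 0.26 in WT (adjusted p = 0.00036) and -1.65 ± 0.32 in 53,54 (0.000658), with -0.36 ± 0.28 in 25,26 (0.585). Prc1, which bundles central spindle microtubules, and Ect2, which acts in forming the cleavage furrow, were lower in WT, at -1.32 ± 0.26 (adjusted p = 0.000637) and -1.65 ± 0.31 (0.000479). Cit, the citron kinase of the midbody, was flat in its brightest probe set, with 8.04, 8.26 and 8.49 in Null, 8.09, 8.26 and 8.44 in WT, 8.15, 8.39, 8.12, 8.41 and 8.59 in 25,26, 8.2002, 8.10 and 8.37 in 53,54 and 8.09, 8.29 and 8.04 in QM. That difference of WT was -0.00 ± 0.09 (adjusted p = 0.993), whereas the other 3 probe sets of Cit were lower in WT, at -1.16 ± 0.17, -0.77 ± 0.17 and -0.91 ± 0.16 (SE), with p-values adjusted over all probe sets of 3.72e-05, 0.00187 and 0.000277 in limma.

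Genes of anaphase control were called lower in 5 of 5 members in WT (median -1.29) and in 53,54 (-1.74), and in 25,26 in 1 of 5 (median -0.37), or 2 of 5 with the block. Espl1 (separase), the protease that cuts cohesin, read 9.003, 9.46 and 9.72 in Null and 6.65, 7.82 and 7.997 in WT. Its other arrays read 9.05, 8.19, 8.76, 8.94 and 8.89 in 25,26, 7.30, 6.52 and 7.98 in 53,54 and 9.35, 9.27 and 9.62 in QM. Espl1 differed by -1.94 ± 0.25 in WT (adjusted p = 7.04e-06), -2.18 ± 0.31 in 53,54 (2.04e-05) and -0.68 ± 0.26 in 25,26 (0.171; with the block -0.78, adjusted p = 0.0451). Fbxo5 (Emi1), an inhibitor of the anaphase-promoting complex, stood at 9.47, 9.64 and 10.17 in Null and 7.12, 8.16 and 8.61 in WT. It stood at 8.90, 8.38, 8.80, 9.02 and 9.08 in 25,26, 7.63, 6.93 and 8.29 in 53,54 and 9.40, 9.77 and 9.62 in QM. Every 25,26 array of Fbxo5 lay below every Null array, and without the block it was the 1 member called lower in 25,26, at -0.88 ± 0.23 (adjusted p = 0.0275), beside -1.65 ± 0.22 in WT (9.11e-06) and -2.10 ± 0.27 in 53,54 (6.09e-06). That call was lost without 25,26 replicate 2 (-0.77, adjusted p = 0.0953), 25,26 replicate 3 (0.0671), Null replicate 2 (0.0669) or Null replicate 6 (0.0507). Cdc20, the mitotic activator of that complex, gave 12.02, 12.59 and 12.80 in Null, 10.61, 11.61 and 11.84 in WT, 12.58, 11.75, 12.43, 12.91 and 12.76 in 25,26, 11.01, 11.10 and 12.07 in 53,54 and 12.55, 12.32 and 12.84 in QM. The 25,26 arrays of Cdc20 were spread around the Null arrays (0.02 ± 0.24, adjusted p = 0.985), while WT was lower, at -1.08 ± 0.23 (0.00136) and 53,54 at -1.08 ± 0.28 (0.00802, and 0.0718 and 0.0685 without 53,54 replicate 2 or 3). Ube2c, the ubiquitin-conjugating enzyme of the complex, read 12.38, 12.69 and 13.08 in Null, 10.50, 11.52 and 12.03 in WT, 12.78, 12.22, 12.22, 12.27 and 12.27 in 25,26, 11.10, 10.54 and 11.30 in 53,54 and 12.98, 13.01 and 12.71 in QM. Ube2c was lower, at -1.29 ± 0.21 in WT (adjusted p = 0.000102) and -1.74 ± 0.26 in 53,54 (3.66e-05), and securin, Pttg1, by -1.27 ± 0.18 in WT (1.9e-05).

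Depdc1a, a DEP domain protein, had the largest difference of all members in 53,54. It read 8.03, 8.28 and 8.81 in Null and 4.71, 6.81 and 7.66 in WT, 8.03, 6.90, 7.71, 7.93 and 7.97 in 25,26, 5.16, 5.67 and 6.66 in 53,54 and 7.98, 7.97 and 8.74 in QM. Before rounding, all 25,26 arrays were under all Null arrays, and Depdc1a differed by -1.75 ± 0.38 in WT (adjusted p = 0.00153), -2.52 ± 0.46 in 53,54 (0.000356) and -0.65 ± 0.39 in 25,26 (0.456).

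**Figure D2:**
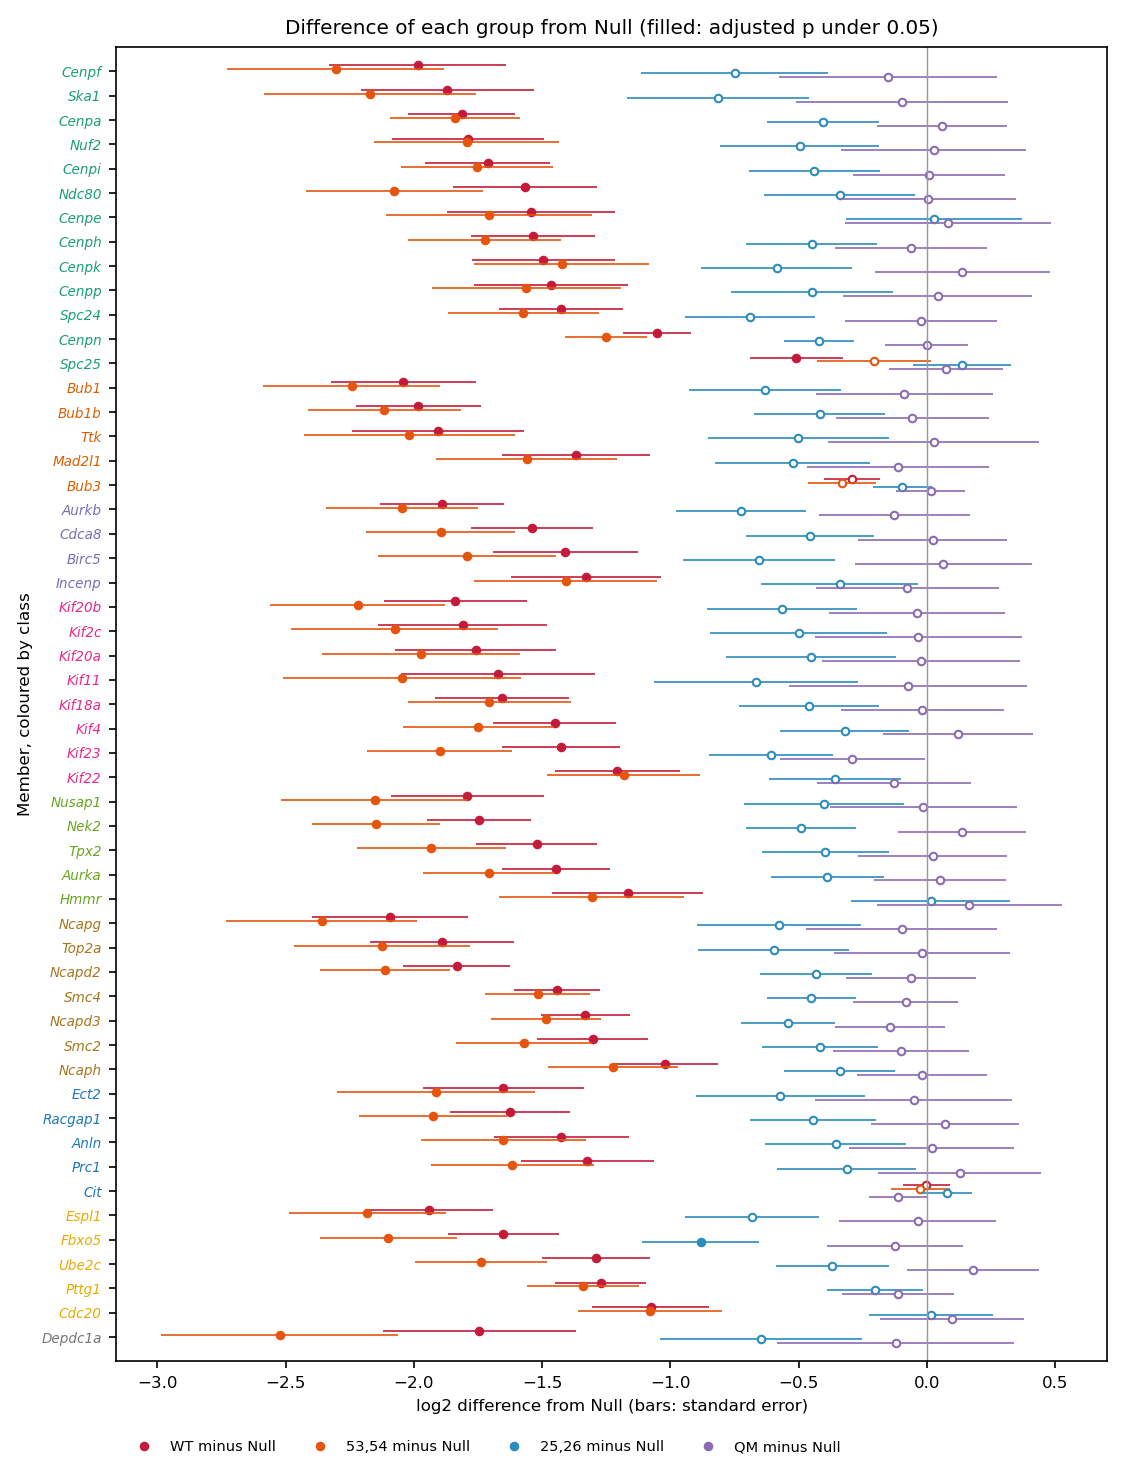
Log2 difference of WT, 53,54, 25,26 and QM from Null for each member (rows, coloured by class), with bars of 1 standard error; filled points have an adjusted p under 0.05. WT and 53,54 points are filled for nearly all rows, Fbxo5 has the 1 filled 25,26 point in this fit without a block, and QM points lie around 0.

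Set beside each other, the classes had medians close to one another. The medians of WT from Null were -1.55 for kinetochore, -1.66 for motor, -1.44 for condensin and topoisomerase and -1.91 for checkpoint genes, and within each class the members spanned a wider range than these medians did, for instance -1.99 to -0.51 in kinetochore genes and -2.04 to -0.29 in checkpoint genes. In 53,54 the same 4 medians were -1.72, -1.94, -1.57 and -2.02, and in 25,26 -0.45, -0.48, -0.45 and -0.50. The classes were not tested against each other, since their members were chosen. Averaged over all 53 members and set against the Null mean, single arrays lay at -2.49 to -1.02 in WT, at -2.00, -2.11 and -1.06 in 53,54, at -0.25, -1.12, -0.45, -0.18 and -0.20 in 25,26, at -0.02, -0.20 and 0.17 in QM and at -0.27 to 0.18 in Null. On this mean the highest WT array was below every 25,26 array but replicate 2, and QM and Null overlapped. The WT values split into 4 arrays between -1.20 and -1.02 and the arrays of title number 2, at -2.49 and -2.08.

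**Figure D3:**
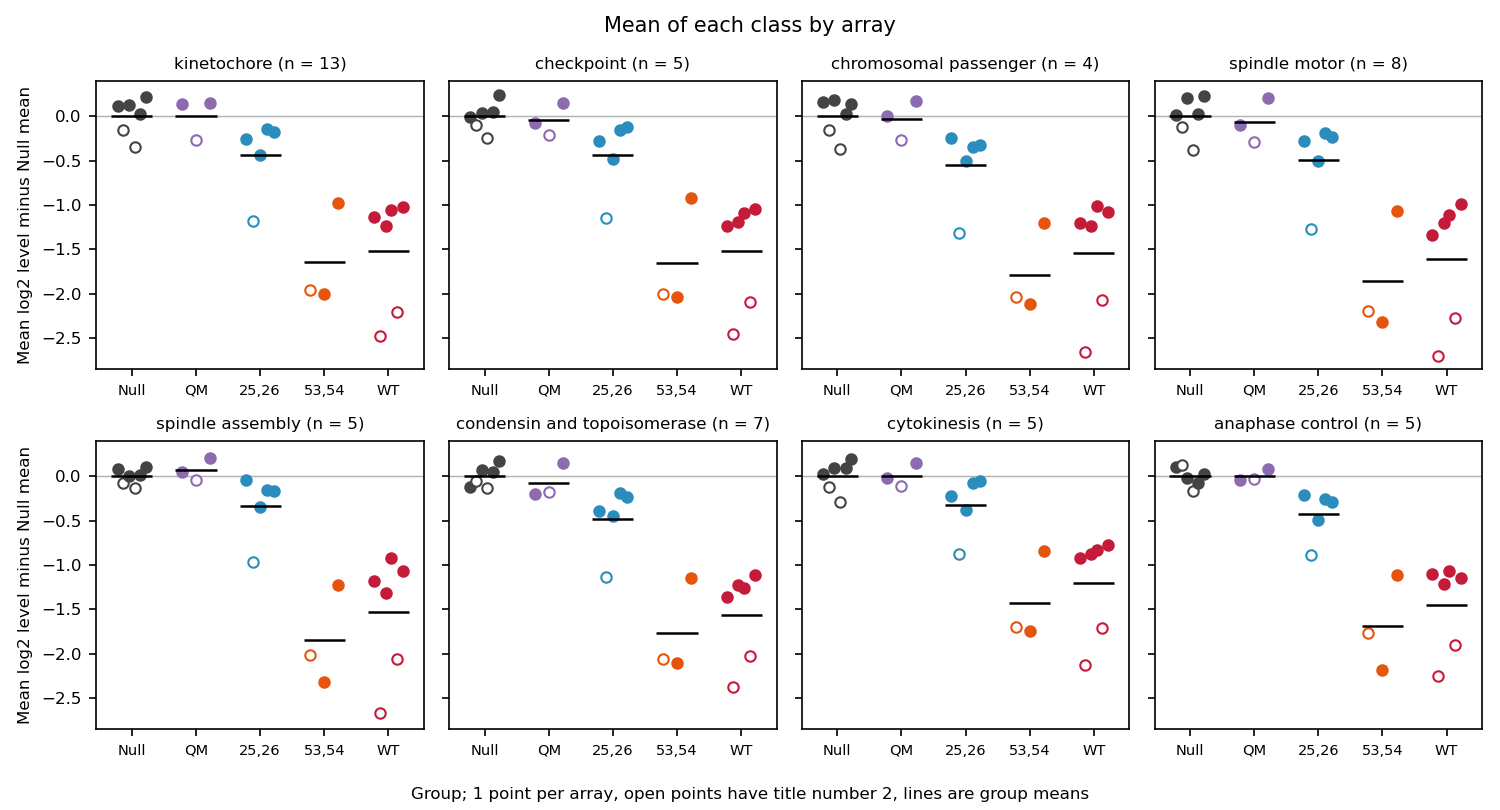
Mean log2 level of the members of each of 8 classes, minus the Null mean, with 1 point per array for Null, QM, 25,26, 53,54 and WT; open points carry title number 2 and lines are group means. In each panel WT and 53,54 lie lowest and QM beside Null, and the open points are the lowest of WT and of 25,26.

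The arrays with title number 2 were low for these genes across genotypes. Of the 53 members, 52 were lowest in array 2 among the 25,26 arrays, 52 among LSL-WT with Cre, 53 among WT with Cre, 46 among Null with Cre, 40 in QM and 36 among LSL-WT with Empty virus, but 20 in 53,54, where replicate 3 was lower on average. The median gap of the members to the other arrays of the set was -1.27 in LSL-WT with Cre, -1.09 in WT with Cre and -0.85 in 25,26, against -0.05, -0.04 and -0.04 for all genes tested. The members varied more within sets than most genes, with a median SD of 0.475 against 0.199. The labels do not say what the number stands for, and its part in the results was not tested beyond the values here. Without these arrays 51 members were called lower in WT (median -1.26), 50 in 53,54 and 1 in 25,26, which was then Aurkb (-0.64, adjusted p = 0.0303) and not Fbxo5 (-0.67, 0.112). The share of all genes called in that fit is not given here, so these counts stand without it.

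The level of 25,26 was between WT and Null in 48 of 53 members and nearer to Null in 52. Below Null it was called in Fbxo5 alone, in the fit of 1 probe set per gene without a block. An unadjusted p under 0.05 was found in 12 members, against 2521 of all 15266 genes in either direction. The difference was negative in 48 members, against 7364 of all genes, and 9 had arrays that did not overlap with Null, against 1.81%. Tested over all probe sets in limma, a set not used for the gene was also called lower in Smc4 (-0.67, adjusted p = 0.0177), Incenp (-0.46, 0.0322) and Cenpf (-0.41, 0.0324). The 26 members called under the block (median -0.58) were 8 of 13 kinetochore, 1 of 5 checkpoint, 4 of 4 passenger, 4 of 8 motor, 0 of 5 spindle assembly, 5 of 7 condensin and topoisomerase, 2 of 5 cytokinesis and 2 of 5 anaphase control genes. The smallest adjusted p-values of limma under the block were those of Cenpn, lower, at -0.50 (adjusted p = 0.00149), and Ncapd3, at -0.63 (0.00398). Of single arrays, leaving out 25,26 replicates 2 or 3 or Null replicates 2 or 6 left 0 calls, and leaving out 25,26 replicate 1 gave 2. By the 95% interval of each member, 29 of 53 differences of 25,26 from Null were bounded within 2-fold in both directions.

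Against WT, 25,26 was called higher in 41 of 53 members and lower in 0, where 4.34% of all genes were called higher, with a median of 1.09. The 3 with the largest moderated statistic were Cenpa (1.41 ± 0.22, adjusted p = 0.000355), Ncapd2 (1.40 ± 0.22, 0.000368) and Bub1b (1.56 ± 0.26, 0.000651). In 13 members no 25,26 array reached down to a WT array, against 2.21% of all genes. The 12 not called were Incenp, Cenpp, Ncaph, Cenpk, Ska1, Spc24, Mad2l1, Depdc1a, Birc5, Kif11, Bub3 and Cit. Under the block Incenp, Cenpp, Ncaph, Cenpk, Ska1, Spc24 and Mad2l1 were called higher as well (Incenp at 0.70, adjusted p = 0.00538), and Fbxo5 was not (0.60, 0.124). Fitted on the 25,26 and WT arrays alone, 21 members were called.

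QM was called higher than WT in 50 of 53 members and lower in 0, where 8.16% of all genes were called higher, with a median of 1.57 and no overlap in 50, against 8.76% of all genes. Nek2 (1.88 ± 0.25, adjusted p = 2.79e-05), Cenpa (1.87 ± 0.25, 3.43e-05) and Ncapd2 (1.77 ± 0.25, 6.37e-05) led. Spc25, Bub3 and Cit were not called; with the title number as a block Spc25 (0.59, adjusted p = 0.00122) and Bub3 (0.30, 0.00364) were. A lack of calls between QM and Null does not show equal levels. The 95% intervals of the 53 differences reached from -1.08 to 0.92, and 50 of them lay within 2-fold. QM overlapped with Null in all 53 members, as it did in most genes. Of all 15266 genes, 74 lay wholly below Null in QM and 145 wholly above.

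Comparisons with WT share its 6 arrays. Between 53,54 and WT 0 members were called, where 0.367% of all genes were called in either direction. In limma 0 members and 1100 of all 15266 genes had an unadjusted p under 0.05. Even so, 50 members had the lower mean in 53,54, as had 8461 of all genes, and the median of the members was -0.21. Ube2c (-0.45 ± 0.26, adjusted p = 0.781), Fbxo5 (-0.45 ± 0.27, 0.797) and Depdc1a (-0.78 ± 0.46, 0.797) had the largest statistics. With arrays weighted by their quality 10 members were called lower in 53,54. The intervals reached from -1.74 to 0.78, with 38 within 2-fold, so larger differences in single members were not bounded by 3 and 6 arrays. Against QM, 53,54 was called lower in 50 members and higher in 0 (median -1.86; 7.63% of all genes were lower). Against 53,54, 25,26 was called higher in 39 members (median 1.32; 2.5% of all genes were higher), led by Nek2 (1.66 ± 0.26, adjusted p = 0.000508); this count was 12 without 53,54 replicate 2 and 5 without 53,54 replicate 3. Between 25,26 and QM 0 members were called, where 0.675% of all genes were, at a median of -0.44. An unadjusted p under 0.05 was found in 4 members and in 1420 of all 15266 genes.

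Ordered by group mean, 29 members ran 53,54, WT, 25,26, QM and Null from low to high, and 17 ran 53,54, WT, 25,26, Null and QM. The 53,54 mean was lowest in 49 members, WT in 3 and QM in 1, and the highest was Null in 30, QM in 21 and 25,26 in 2. Of neighbours in this order, WT and 25,26 were told apart in 41 members, and 53,54 and WT, 25,26 and QM, and QM and Null in 0, in the fit without block or array weights. Array weights told 53,54 and WT apart in 10 members.

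WT and Null each joined cultures of different origin, so the difference was taken apart. The same LSL-WT allele with Cre against Empty virus gave 50 members lower and 0 higher (median -1.73; 6.89% of all genes lower), led by Fbxo5 at -1.94 ± 0.30 (adjusted p = 0.000255). WT with Cre against Null with Cre gave 43 lower and 0 higher (median -1.36; 7.19% of all genes lower), led by Ncapd2 at -1.91 ± 0.30 (0.000261). These parts share no array, and 43 members were called in both. Without a block, the 7 called in the first part alone were Cdc20, Prc1, Mad2l1, Birc5, Depdc1a, Kif11 and Hmmr. Even so, the difference between the parts passed the test in 0 members, where 0.00655% of all genes did. Its unadjusted p in limma was under 0.05 in 0 members and in 1193 of all 15266 genes. The fall was larger in the LSL-WT part in 48 members, with a median difference between the parts of -0.28. Over all 15266 genes this difference was negative in 8688. Leaving out 1 array moved the median of the members to between -0.72 and 0.13, so its sign depends on single arrays. The first count was 29 without WT replicate 2 and 25 with only the compared arrays in the fit. The second was 27 without Null replicate 5, 23 without Null replicate 6, 16 without WT replicate 5 and 11 with the Xist level of each array as a covariate. With the title number as a block the counts were 52 and 51, though the second comparison, with 2 pairs, was not taken as paired. Between LSL-WT with Empty virus and Null with Cre 0 members were called by limma, where 0.216% of all genes were. An unadjusted p under 0.05 was found in 1 member and in 1102 of all 15266 genes. Between LSL-WT with Cre and WT with Cre 0 members were called, where 0.983% of all genes were. There limma gave an unadjusted p under 0.05 in 0 members and in 1775 of all 15266 genes.

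**Figure D4:**
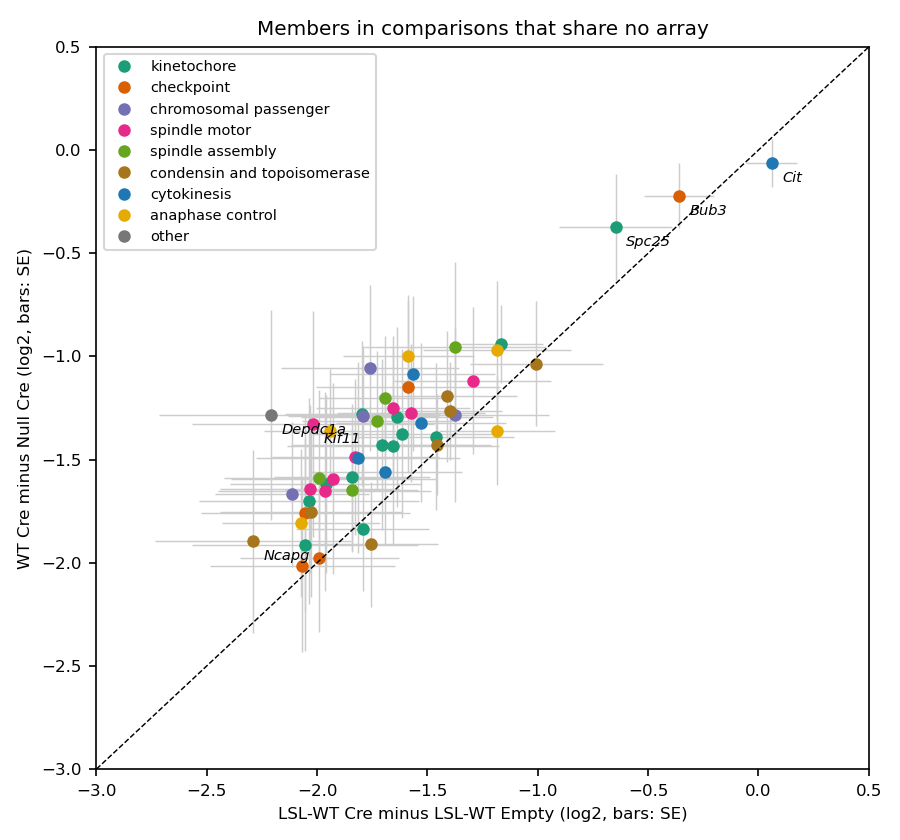
Log2 difference of LSL-WT with Cre from LSL-WT with Empty virus (x axis) and of WT with Cre from Null with Cre (y axis) for each member, coloured by class, with bars of 1 standard error; the dashed line marks equal differences. Most points lie above the line, 48 of 53 members having the larger fall on the x axis, and Spc25, Bub3 and Cit lie nearest to 0 on both axes.

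Several probe sets per gene gave a check of the measure within the same arrays. The 53 members have 130 probe sets, 39 members have more than 1, and 114 probe sets passed the filter on low values. Tested over all probe sets, 101 were lower in WT, 0 higher and 13 did not pass. Of these 13, 8 had a mean log2 level under 6, as had 10 of the 101. Members whose probe sets disagreed were Cenpa, Bub1b, Bub3, Kif2c, Tpx2, Nek2, Nusap1, Top2a and Cit. In Cenpa the second tested set, at a mean level of 5.32, differed by -0.09 ± 0.09 (SE). In Bub3 the sets differed by -0.29, -0.07, -0.51 and -0.14, and the third was called (adjusted p = 0.0264). Cit was the 1 member in which the brightest set was not called and all its other sets were.

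**Figure D5:**
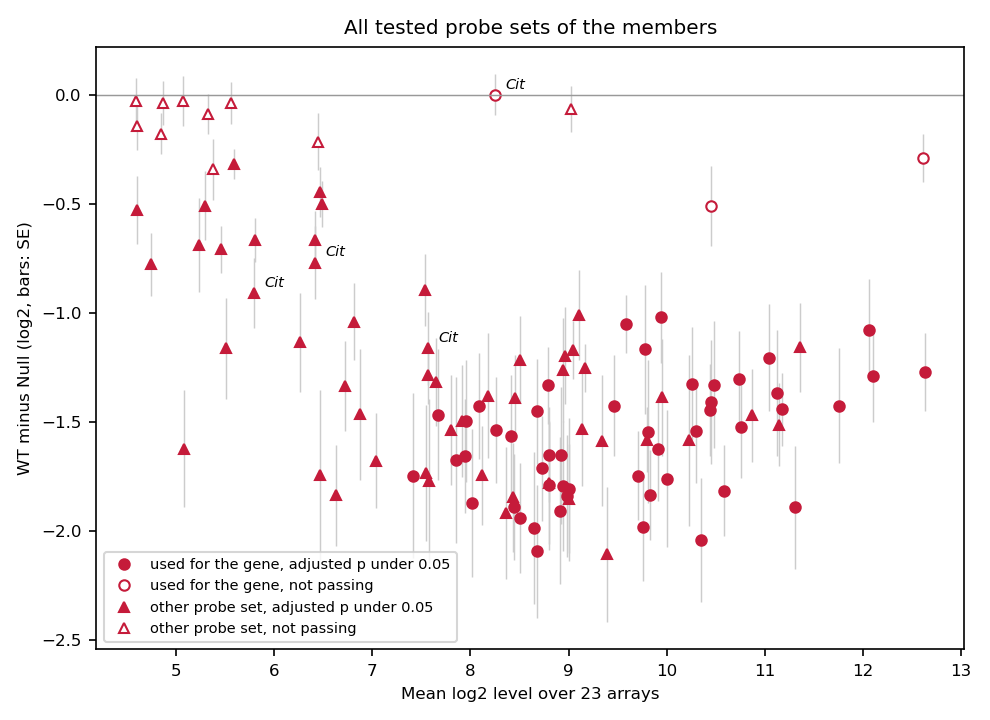
Mean log2 level over 23 arrays (x axis) and log2 difference of WT from Null with its standard error (y axis) for each of the 114 tested probe sets of the members; circles are the sets used for the gene and triangles the others, filled where the adjusted p over all probe sets is under 0.05. Most open points lie at low levels, and the open circles are Cit, Spc25 and Bub3.

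Other genes of mitosis, from a list of 35 that shares no gene with the members, went the same way. Of 34 tested, 28 were lower in WT and 1 higher (median -1.46), and in 53,54 28 were lower and 1 higher (median -1.76). In 25,26 3 were lower and 1 higher, and in QM 0 were called. Of all genes tested, 11.8% were called lower in WT, 10.3% in 53,54 and 1.28% in 25,26. Bora, which activates Aurka, was lower in WT, at -1.14 ± 0.11 (adjusted p = 1.3e-07), Mastl, the Greatwall kinase, at -1.27 ± 0.16 (3.79e-06) and Spag5 (astrin) at -1.68 ± 0.22 (7.41e-06). Gtse1, which encodes a microtubule-binding protein and is known to be induced by p53, was the 1 higher gene. It was higher than Null by 1.62 ± 0.14 in WT (adjusted p = 4.35e-08), 2.01 ± 0.17 in 53,54 (3.59e-08) and 1.09 ± 0.15 in 25,26 (7.06e-05). Ckap2, Kif15, Kifc1, Numa1 and Zw10 were not called in WT.

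Subunits of the anaphase-promoting complex and cohesin, which are needed beyond mitosis, had smaller median differences. The counts below stand beside 11.8% of all genes called lower in WT and 1.28% in 25,26. Of 13 subunits and activators of the complex 5 were lower in WT and 0 higher (median -0.25), with Cdc23 at -0.46 ± 0.08 (adjusted p = 0.000329), Cdc26 at -0.55 ± 0.11 (0.000842), Anapc1 at -0.49 ± 0.10 (0.000987) and the activator Fzr1 at -0.39 ± 0.10 (0.00604). Of 9 cohesin genes 6 were lower and 0 higher (median -0.37), with Smc3 at -0.63 ± 0.07 (1.66e-06) and Pds5b at -0.85 ± 0.15 (0.000251). Of 14 genes of MuvB and of mitotic transcription 8 were lower in WT and 0 higher (median -0.27). The activators Mybl2 and Foxm1 were lower, at -1.29 ± 0.18 (2.33e-05) and -1.27 ± 0.22 (0.00023), the MuvB subunit Lin9 by -1.44 ± 0.22 (4.86e-05) and the repressor Rbl1 by -0.96 ± 0.15 (7.83e-05), while Rbl2 differed by 0.16 ± 0.15 (0.555) and E2f4 by -0.14 ± 0.29 (0.81). In 25,26 Mybl2 was the 1 gene of this list called, lower, at -0.90 ± 0.19 (0.00782).

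Some markers were called in WT against Null, where 1797 of all 15266 genes were called lower and 1668 higher. Col3a1 (-0.92 ± 0.19, adjusted p = 0.00125) and Pdgfrb (-0.83 ± 0.26, 0.0237) were lower among 8 fibroblast markers, Cldn4 (0.94 ± 0.28, 0.0163) was higher among 5 epithelial markers, and 0 of 3 tested macrophage and 0 of 3 tested endothelial markers were called. In 53,54 the macrophage marker Cd14 was higher by 0.95 ± 0.24 (0.00631). Their part in the differences of the members was not tested.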

How the data were processed

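RNA of mouse embryonic fibroblasts was measured on Affymetrix arrays. The authors deposited intensity values per probe set on a linear scale, made with RMA per the submitters' processing notes; its version and options are not given in the sources used here. Array medians were 59.9 to 64.2. Precision is limited by having only 3 to 6 arrays in a group. Log2 values were taken of 45037 probe sets, without 64 control sets. Of these 34945 carried 1 gene symbol in the platform annotation, 932 several and 9160 were not listed; the last 2 kinds were left out. Each of 18193 genes was represented by the probe set with the highest mean, and 15266 with at least 3 arrays above the 30th percentile (log2 4.79) were tested.

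In limma 3.58.1 (R 4.3.3), a model of 5 group means took in all 23 arrays (lmFit, eBayes, two-sided, Benjamini-Hochberg over all genes), with a threshold of 0.05. A model of 7 sets of arrays with the same title gave the parts of WT against Null. The code was tested on simulated data. Members and gene lists were chosen with earlier results of these data known. Given in full were, per class, the 2 members with the largest and the 1 with the smallest moderated statistic in WT against Null, and Depdc1a; with values, members called in 25,26, 53,54 or QM (up to 8 by statistic), members opposite to most, the 3 leading members against WT and up to 4 genes per other list.

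Title numbers repeat across groups. Residuals of arrays with the same number correlated over 0.1 in every pair for WT and Null (0.131 to 0.804 over 10 pairs), and likewise for 25,26, 53,54 and QM against WT or Null, 25,26 against 53,54, LSL-WT with Cre against Empty virus and LSL-WT against WT with Cre, which was taken as pairing there. The main fits nevertheless held no term for this pairing, so their SE, p-values and counts ignore it. With the title number as a block, limma called 52 members lower than Null in WT, 51 in 53,54 and 26 in 25,26. In QM the block gave 0 calls. Alternatives were other filters, probe set choices, normalizations, covariates (strain, Xist, title number), variance models, array weights, left-out arrays and parts of the joined groups.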

Additional observations from a re-analysis of the deposited data

Results flagged for a closer look

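In groups of 4 to 10 arrays, 15 of 105 sets of values held an array set apart from the others by Dixon's criterion at 95%. For a single set chance gives about 1 in 20. The sets share arrays and the class means average the same members, so the count cannot be compared with that rate. Of these, 13 are low values of 25,26 replicate 2. The mean of all members relative to Null was -1.12 in that array, with the next at -0.45; the kinetochore mean was -1.18, the chromosomal passenger mean -1.31 and the condensin and topoisomerase mean -1.14. Its log2 levels were 10.02 for Spc25, 10.004 for Bub1, 8.08 for Aurkb, 9.86 for Cdca8, 9.63 for Incenp, 8.40 for Kif20b, 9.39 for Hmmr, 10.90 for Smc4 and 6.90 for Depdc1a. Ube2c was set apart in 25,26 replicate 1, at 12.78 against 12.27 for the next array. Fbxo5 was low in WT replicate 2, at 7.12 against 8.05 for the next.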

How the results depend on the processing

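Counts of members called stayed within 1.5 times the reported count under every alternative for WT against Null (49 to 52 over 17 settings), 53,54 against Null (49 to 52 over 15), QM against Null (0), QM against WT (43 to 52), 53,54 against QM (49 to 51) and, apart from left-out arrays, 25,26 against 53,54 (26 to 52). For 25,26 against Null the reported 1 became 26 with the replicate block, 5 with the compared arrays alone, 4 with array weights, 2 with the probe set of largest variance, and 0 with the Xist covariate, with Null Cre alone and with LSL-WT Empty alone as Null. For 25,26 against WT it became 21 with the compared arrays alone. For 53,54 against WT it became 10 with array weights. For 25,26 against QM it became 5 with the replicate block, where the title numbers did not meet the rule for pairing (2 of 3 pairs). LSL-WT Cre against Empty became 25 with the compared arrays alone, and WT Cre against Null Cre 11 with the Xist covariate. The cause of these changes was not tested, except that fits on the compared arrays alone hold fewer arrays. The block moved no other count by over 1.5 times. Among the alternatives, the share of all genes called is given only for 25,26 against Null with the block. Counts under the other settings stand without such a share. Leaving out 1 array gave 50 to 52 for WT against Null, 0 to 2 for 25,26 against Null, 46 to 51 for 53,54 against Null, 28 to 49 for 25,26 against WT, 39 to 51 for QM against WT, 41 to 50 for 53,54 against QM, 5 to 48 for 25,26 against 53,54, 29 to 50 for LSL-WT Cre against Empty and 16 to 45 for WT Cre against Null Cre, and 0 in the other comparisons. The flat value of Cit in its brightest probe set turned with the mean of its probe sets and the set of largest variance: to 0.60 and 1.13 for QM against WT, to -0.69 and -1.41 for 53,54 against QM and to -0.60 and -1.15 for LSL-WT Cre against Empty. Over 226 values of single genes, 3777 alternatives kept direction and side of the threshold, 224 lost the call, 128 gained one and 6, those of Cit, reversed.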
